A study of Homo sapiens with 183 samples.

Results

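The 86 genes described here are the nuclear-encoded subunits of the mitochondrial respiratory chain and of ATP synthase, together with the assembly factors that share their names. They were chosen by symbol. Of the 19875 gene names in the tables, 89 began with NDUFA, NDUFB, NDUFC, NDUFS, NDUFV, UQCR or ATP5, or had a COX4 to COX8 subunit name, and 86 of these reached a mean of 1 TPM (a transcript's length-normalised share of all mRNA in a library) over the 183 libraries. The 3 left out were COX6A2 at a mean of 0.01 TPM, COX7A1 at 0.19 TPM and COX8C at 0.31 TPM. Just inside the limit were UQCRHL at 1.21 TPM and NDUFA4L2 at 1.38 TPM. By class, 37 are subunits of complex I, 9 of complex III, 11 of complex IV and 19 of ATP synthase, or regulate it. Another 8 are NDUFAF genes, whose products help to build complex I without staying in it, and 2 are NDUFA4, now assigned to complex IV, and its relative NDUFA4L2. The pattern does not reach complex II, cytochrome c, COX4I1 or the subunits encoded in mitochondrial DNA.

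The study asked how the transcription factor KLF5 and the AAA+ ATPases RUVBL1 and RUVBL2, which form a mixed ring, act on gene expression in pancreatic ductal adenocarcinoma cells. In CFPAC-1, BxPC-3, T3M-4, SUIT-2 and AsPC-1, established pancreatic cancer lines that stably express Cas9, KLF5, RUVBL1, RUVBL2, CDK1 (a mitotic kinase), RPA3 (labelled sgRpa3, a subunit of a DNA replication complex), SERPINB5 or CHD4 (a chromatin remodeller) was knocked out, and RNA was taken on day 5 after the lentiviral sgRNA. The knockouts were cell pools, not clones, the labels do not say which sgRNA a library received, and the control sgRosa targets the ROSA26 locus. CB-6644, an inhibitor of the RUVBL1/2 ATPase, was given for 24 h, with DMSO as control, to T84 (colorectal), A375 (melanoma), H1048 (small cell lung, tuft cell-like) and RH30 (alveolar rhabdomyosarcoma) and to AsPC-1 and T3M-4 that carried RUVBL1 A62T, RUVBL2 dF109 or an empty vector, the first 2 being variants that resist the compound.

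Each line and experiment had its own control libraries. The sgKLF5 group held 6 libraries in AsPC-1 experiment 1, 3 in CFPAC-1 and 4 elsewhere, and the RUVBL1 and RUVBL2 knockouts held 4, except 3 for sgRUVBL1 in T3M-4, 3 for sgRUVBL2 in BxPC-3 and 2 for sgRUVBL2 in CFPAC-1. sgSERPINB5 and sgCHD4 had 4 libraries each, and sgCDK1 and sgRpa3 had 2 each. sgRosa had 2 libraries in experiment 1 of AsPC-1, BxPC-3 and T3M-4 and 4 in all other sets. T84, A375, H1048 and RH30 had 4 CB-6644 and 4 DMSO libraries, while AsPC-1 and T3M-4 had 3 CB-6644 libraries per vector and 1 DMSO library per vector, the 3 DMSO libraries of a line forming its control group. Nothing in the labels says that the libraries of a group came from separate cultures, so a p-value measures only the spread between them.

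Oxidative phosphorylation passes electrons from NADH and succinate through complexes I, III and IV to oxygen, and the proton gradient that the complexes build turns the rotor of ATP synthase. Most subunits are encoded in the nucleus by short, abundant mRNAs of housekeeping type, while a small core is encoded in mitochondrial DNA. In many cells the nuclear subunit genes are coordinately controlled, with NRF1, GABP (an ETS factor), YY1 and the PGC-1 coactivators as known regulators, and a few subunits exist as alternative isoforms from paralogous genes.

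Levels in each library were given by TPM. Genes at 1 TPM or more numbered 11292 to 14024 per library, and the 86 members together took 2.06% to 4.10% of TPM. The most abundant were ATP5F1E (epsilon subunit of ATP synthase, mean 1821 TPM), COX7C (1548 TPM), ATP5F1B (catalytic beta subunit, 1198 TPM), COX6A1 (1146 TPM), COX8A (1028 TPM) and UQCRH (complex III hinge protein, 1023 TPM). Some marker genes were set against the line labels, with none given here for CFPAC-1 or T84. The basal keratin KRT5 was at 30.1 TPM or more in every T3M-4 and BxPC-3 library. It was no higher than 1.48 TPM in AsPC-1 and SUIT-2 except in 1 AsPC-1 library. SOX10 was high in A375 only, MYOD1 in RH30 only and POU2F3 in H1048 only. Against their labels, the pigment gene TYR was at 0 in A375 and the tuft cell channel TRPM5 was near 0 in H1048. Other markers of these lines are not given here. RUVBL1, RUVBL2 and SERPINB5 mRNA fell in each of their own knockouts. KLF5 mRNA was lower after sgKLF5 in CFPAC-1 (log2 fold change -0.41), higher in T3M-4 experiment 2 (0.78, or 0.67 without sgRosa replicate 4) and AsPC-1 experiment 1 (0.53) and not called in the other 5 sets, and CHD4 mRNA was higher after sgCHD4 (0.28). CDK1 mRNA fell in T3M-4 and BxPC-3 but was not called in AsPC-1 or CFPAC-1, where the libraries labelled sgCDK1 had 194 to 207 TPM against 206 to 236 TPM in sgRosa, and RPA3 mRNA was called lower in experiment 2 of BxPC-3 and T3M-4 and in no other sgRpa3 set. The AsPC-1 library that differed by its keratins was experiment 1 sgKLF5 replicate 6, with KRT5 at 60.5 TPM and the related KRT6A at 37.1 TPM. Other libraries stood apart by their members' share: T3M-4 experiment 1 sgKLF5 replicate 2 at 4.10%, T3M-4 experiment 2 sgRosa replicate 4 at 3.38% against 2.85% to 2.93% in the other sgRosa libraries, and SUIT-2 sgRosa replicate 1 at 3.01% against 2.06% to 2.39%. Counts of members, and the values of members named, are given with and without these 4 libraries where they enter a comparison; the ribosomal protein counts and the captions use all libraries. In bulk libraries fewer cells of a kind and less RNA per cell cannot be told apart.

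The promoters of 4 members are shown because the results turn on these genes: ATP5MC1 and ATP5MC2, which encode the same mature c subunit and moved together in several comparisons, and COX6B1 and COX6B2, the ubiquitous and the testis-type isoform of a complex IV subunit, which did not. Each runs 5′ to 3′ from 250 bases before to 50 bases after the start of the gene in RefSeq (GRCh38.p14), and capitals mark a match to 1 of the 6 motifs named after the sequences, on either strand. ATP5MC1 lies at chr17:48892537-48892836 on the plus strand, with an E-box in capitals; ATP5MC2 at chr12:53676034-53676333 on the minus strand, with an NRF1 core; COX6B1 at chr19:35648073-35648372 on the plus strand, with an ETS motif; and COX6B2 at chr19:55354670-55354969 on the minus strand, with no match.
ATP5MC1: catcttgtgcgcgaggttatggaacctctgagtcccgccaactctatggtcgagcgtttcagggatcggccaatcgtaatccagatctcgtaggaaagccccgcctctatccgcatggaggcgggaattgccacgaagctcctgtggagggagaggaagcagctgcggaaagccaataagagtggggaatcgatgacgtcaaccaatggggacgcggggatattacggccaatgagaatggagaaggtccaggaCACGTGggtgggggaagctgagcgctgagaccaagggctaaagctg
ATP5MC2: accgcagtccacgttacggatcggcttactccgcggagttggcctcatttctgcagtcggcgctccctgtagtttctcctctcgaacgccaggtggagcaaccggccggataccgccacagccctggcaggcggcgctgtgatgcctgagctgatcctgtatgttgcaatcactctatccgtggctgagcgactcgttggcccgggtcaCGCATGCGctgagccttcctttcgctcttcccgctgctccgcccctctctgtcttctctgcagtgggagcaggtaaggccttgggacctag
COX6B1: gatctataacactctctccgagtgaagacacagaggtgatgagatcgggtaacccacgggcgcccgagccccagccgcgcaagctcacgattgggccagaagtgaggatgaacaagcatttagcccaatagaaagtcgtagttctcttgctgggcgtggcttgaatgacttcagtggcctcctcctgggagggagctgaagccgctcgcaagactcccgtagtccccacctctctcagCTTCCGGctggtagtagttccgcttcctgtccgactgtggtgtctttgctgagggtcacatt
COX6B2: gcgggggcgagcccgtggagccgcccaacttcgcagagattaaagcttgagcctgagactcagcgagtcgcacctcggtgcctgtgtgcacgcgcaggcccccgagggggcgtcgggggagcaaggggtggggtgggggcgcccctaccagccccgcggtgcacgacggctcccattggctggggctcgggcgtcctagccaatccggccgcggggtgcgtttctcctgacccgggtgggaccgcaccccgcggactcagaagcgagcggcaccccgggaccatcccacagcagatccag

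Promoters were matched for 68 of the 86 members; ATP5MC3 was not among them. The NRF1 core CGCANGCG was found in 21 of 68 (30.9%, against 10.6% of all 27305 promoters of the same length), the ETS motif CCGGAAG in 17 (25.0% against 10.7%) and the YY1 motif AAGATGG in 15 (22.1% against 6.06%). The GC box GGGCGGGG was found in 14 members (20.6% against 22.9%), the E-box CACGTG in 8 (11.8% against 7.43%) and the CACCC box CCACACCC, a KLF-type motif, in 1 (1.47% against 3.22%). Both strands were searched, and overlaps between matches of different motifs were not removed. These matches describe the letters of the window.

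Knockout of RUVBL1 or RUVBL2 moved the respiratory chain genes in opposite directions in different lines. In T3M-4, the mRNAs of 52 of 86 members fell after sgRUVBL1 and 3 rose, where 14.6% of all genes fell and 45.9% rose. In T3M-4 sgRUVBL2, 40 of 86 fell and 3 rose, where 15.2% of all genes fell and 39.3% rose. In CFPAC-1, by contrast, 35 of 83 members rose after sgRUVBL1 and 5 fell, where 6.54% of all genes rose and 37.3% fell. The members' median log2 fold change was -0.26 in T3M-4 sgRUVBL1, beside 0.25 for all genes, and 0.15 in CFPAC-1 sgRUVBL1, beside -0.20 for all genes. In both lines the members' median thus lay on the other side of 0 from that of all genes. The libraries also differed in make-up. In T3M-4, genes at 1 TPM or more averaged 13482 after sgRUVBL1 against 12766 in sgRosa, and the 50 most abundant genes took 16.9% of TPM against 21.0%. In CFPAC-1 the averages were 12462 against 12764 genes, and 22.0% against 19.6%. Of 5 markers of fibroblasts, leukocytes and endothelium, COL1A1, COL1A2, PTPRC, CD3E and PECAM1, the summed level was 36.6 to 41.8 TPM in T3M-4 sgRUVBL1 and 13.2 to 26.6 TPM in sgRosa, with COL1A2 near 0 in both, and it was 5.77 to 11.9 TPM in CFPAC-1 sgRUVBL1 and 11.6 to 54.0 TPM in sgRosa, with CD3E at or near 0 in both. Their part in the result was not tested. Because TPM are shares, the fits were also made after scaling each library by the median of ratios, which centres typical genes. Then 72 members fell and 2 rose in T3M-4 sgRUVBL1, 60 fell and none rose in T3M-4 sgRUVBL2, and 56 rose and none fell in CFPAC-1 sgRUVBL1. Shares of all genes after scaling are not given for these sets. The members' median relative to all genes was -0.55, -0.39 and 0.37 with scaling, in the same order. Without scaling it was -0.52, -0.37 and 0.35.

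The T3M-4 decrease was called in all 4 complexes. After sgRUVBL1, 16 of 19 ATP synthase genes fell (median log2 fold change -0.33), as did 8 of 9 complex III genes (-0.29), 7 of 11 complex IV genes (-0.26) and 16 of 37 complex I genes (-0.18). Among the 8 assembly factors 4 fell and 1 rose. Without the control library that stood apart, 46 members fell after sgRUVBL1 and 36 after sgRUVBL2, and the members' median relative to all genes was -0.40 and -0.25 rather than -0.52 and -0.37. The sgRUVBL1 counts by class were then 16 lower for ATP synthase, 6 for complex III, 5 for complex IV, 15 for complex I and 3 for the assembly factors. The 82 cytosolic ribosomal protein genes tested, other short and abundant mRNAs, moved the same way, with 75 lower and none higher in T3M-4 sgRUVBL1 (median -0.40). In CFPAC-1 sgRUVBL1 the rise was uneven between classes. Of complex I 16 of 37 genes rose and 2 fell, of ATP synthase 7 of 19 rose and 1 fell, of complex IV 7 of 10 rose and none fell, of complex III 5 of 8 rose and 2 fell, and of the 8 assembly factors none was called. There 71 of 83 ribosomal protein genes were higher (median 0.27). What part the ribosomal protein mRNAs play in these shifts was not tested.

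**Figure D1:**
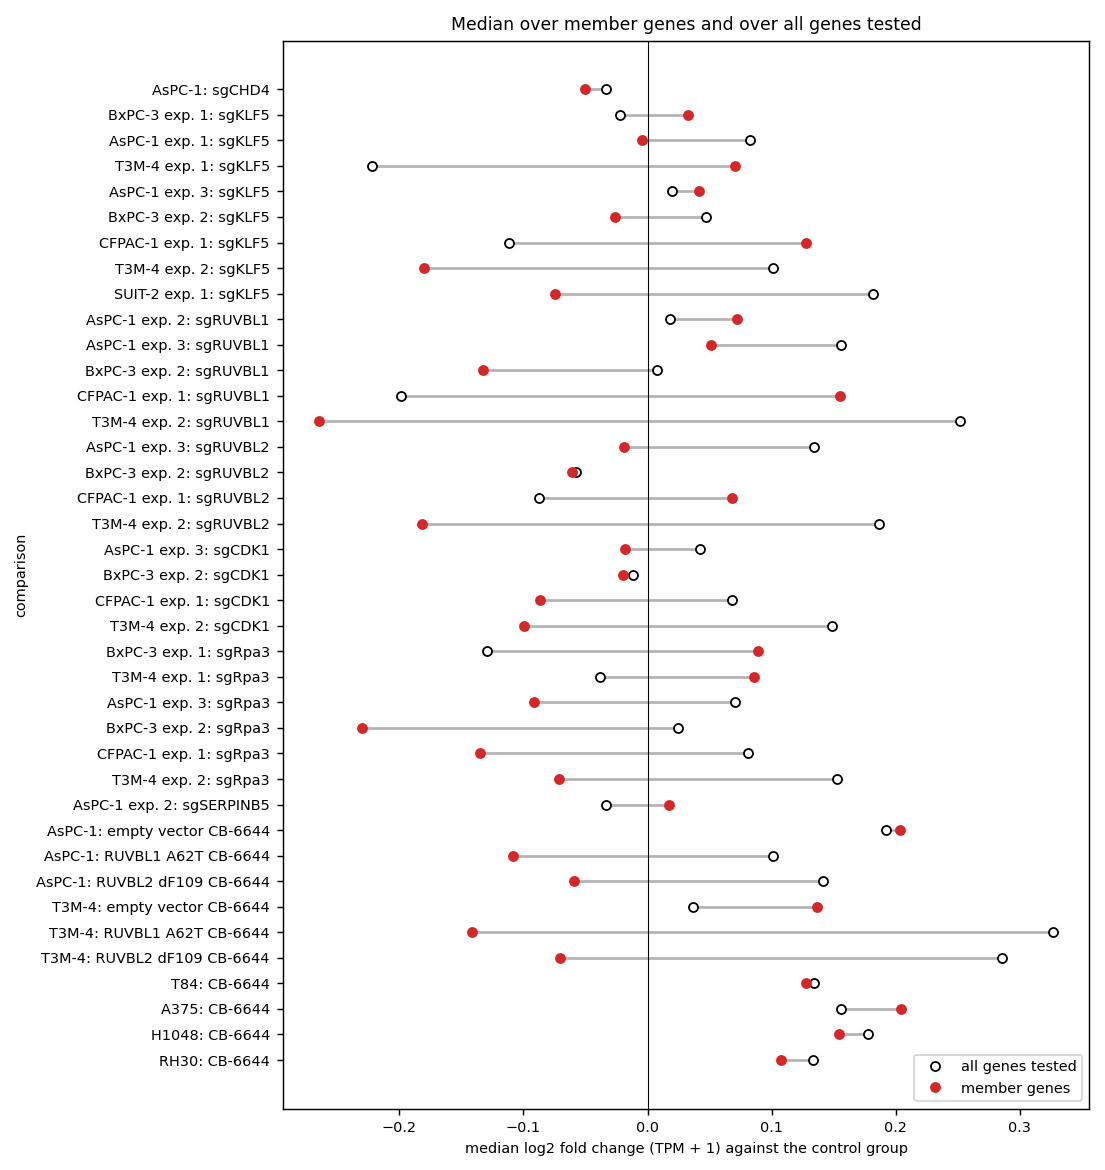
Median log2 fold change, on log2(TPM + 1), over the member genes (red) and over all genes tested (open circles) in each of the 39 comparisons against control, joined by a grey line. Members sit left of all genes in the T3M-4 RUVBL1 and RUVBL2 knockouts (-0.26 and -0.18) and right of them in CFPAC-1 (0.15 and 0.07).

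AsPC-1 and BxPC-3 lay between these extremes. In AsPC-1 experiment 2, sgRUVBL1 raised 28 of 82 members (34.1%) and lowered 12 (14.6%), where 30% and 25.8% of all genes rose and fell. In experiment 3 it raised 18 of 84 (21.4%) and lowered 13 (15.5%), where 36.6% and 15.2% of all genes rose and fell. The classes differed within AsPC-1: in experiment 2, 15 complex I genes rose and 3 fell, while 3 ATP synthase genes rose and 7 fell. In experiment 3 the counts were 11 and 3 for complex I and 3 and 6 for ATP synthase. After scaling, the experiment 3 split turned to 4 higher and 18 lower. AsPC-1 sgRUVBL2 lowered 20 of 84 members and raised 4, where 11% of all genes fell and 32.2% rose. BxPC-3 sgRUVBL1 lowered 24 of 85 members and raised none, where 7.67% of all genes fell and 8.29% rose, and the scaled count was 12 lower; leaving out sgRosa replicate 2 or sgRUVBL1 replicate 1 or 2 left 14 lower. BxPC-3 sgRUVBL2 lowered 6 of 85, near the 5.48% of all genes, and raised none; a fit of these 2 groups called none, and 3 were lower without sgRosa replicate 2 or 3 and 13 were lower without sgRUVBL2 replicate 3. CFPAC-1 sgRUVBL2 raised 10 of 83 and lowered 1, where 2.83% and 9.26% of all genes did so. That count rests on 2 knockout libraries: it was 1 higher without sgRUVBL2 replicate 1, 4 higher without replicate 2, and none in a fit of the 2 groups alone.

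The RUVBL1 and RUVBL2 knockouts were also compared directly. No member differed in BxPC-3, CFPAC-1 or T3M-4 by the limma test, with 8, 18 and 6 members at an unadjusted p under 0.05, and at most 0.0162% of all genes were called in a direction there. In AsPC-1, 5 of 84 members were higher in sgRUVBL1 than in sgRUVBL2 and none lower, where 1.53% and 2.18% of all genes were. Scaling left 1 of the 5 and a fit of the 2 groups none, and the count was 0 without sgRUVBL1 replicate 1, 1 without sgRUVBL1 replicate 2, 3 without sgRUVBL1 replicate 4 and 10 without sgRUVBL2 replicate 2. Among the 5 were NDUFV3, an accessory subunit of the NADH-binding arm (log2 difference 0.45), NDUFA1 (0.35) and NDUFA2 (0.32).

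Genes of the ATP synthase c subunit were the members most often lower. Subunit c forms the rotor ring of ATP synthase, and ATP5MC1, ATP5MC2 and ATP5MC3 encode the same mature protein with different targeting peptides. ATP5MC1 lies at chr17:48892765-48895871, ATP5MC2 at chr12:53632726-53677408 and ATP5MC3 at chr2:175176258-175181710 in GRCh38. Over the 39 comparisons against control, ATP5MC1 and ATP5MC2 were each lower in 18 and ATP5MC3 in 15, the counts for ATP5MC1 and ATP5MC2 being the highest of all members.

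In T3M-4 experiment 2, ATP5MC1 was at 728, 718, 689 and 807 TPM in the sgRosa libraries. It was at 391, 437 and 462 TPM after sgRUVBL1 (log2 fold change -0.78 ± 0.08 SE, adjusted p = 5.6e-07) and at 455, 434, 476 and 418 TPM after sgRUVBL2 (-0.72 ± 0.07, adjusted p = 5.1e-07). No knockout library reached the lowest control. ATP5MC3 was at 149, 150, 147 and 176 TPM in sgRosa and at 85.2, 96.7 and 87.4 TPM after sgRUVBL1 (-0.79 ± 0.07, adjusted p = 1.3e-07). ATP5MC2, the most abundant of the 3 paralogs, was at 1266, 1210, 1161 and 1454 TPM in sgRosa and at 760, 864 and 880 TPM after sgRUVBL1 (-0.61 ± 0.09, adjusted p = 2.5e-05). All 3 paralogs were separated from their controls in both knockouts, and without the control library that stood apart the sgRUVBL1 log2 fold changes were -0.73, -0.72 and -0.54 for ATP5MC1, ATP5MC3 and ATP5MC2, and that of ATP5MC1 after sgRUVBL2 was -0.67.

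In AsPC-1 experiment 2 the same genes fell after sgRUVBL1 by less. ATP5MC1 was at 295, 289, 262 and 302 TPM in sgRosa and at 240, 209, 213 and 206 TPM in the knockout (-0.40 ± 0.06, adjusted p = 3.9e-05), with no overlap, and ATP5MC3 (-0.33 ± 0.05) and ATP5MC2 (-0.28 ± 0.05) fell as well. In the independent experiment 3 of AsPC-1 the log2 fold changes after sgRUVBL1 were -0.48 for ATP5MC1, -0.39 for ATP5MC3 and -0.34 for ATP5MC2, all called. In BxPC-3, ATP5MC3 was at 168, 189, 168 and 158 TPM in sgRosa and at 128, 137, 129 and 127 TPM after sgRUVBL1 (-0.38 ± 0.06, adjusted p = 0.00039), again without overlap, whereas ATP5MC2 was not called. CFPAC-1 differed: ATP5MC2 was higher there after sgRUVBL1 (0.15 ± 0.05, adjusted p = 0.025, libraries overlapping), ATP5MC3 stood at 0.03 and was not called, and the lower call of ATP5MC1 (-0.29 ± 0.11, overlapping) was lost on scaling, at -0.07.

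**Figure D2:**
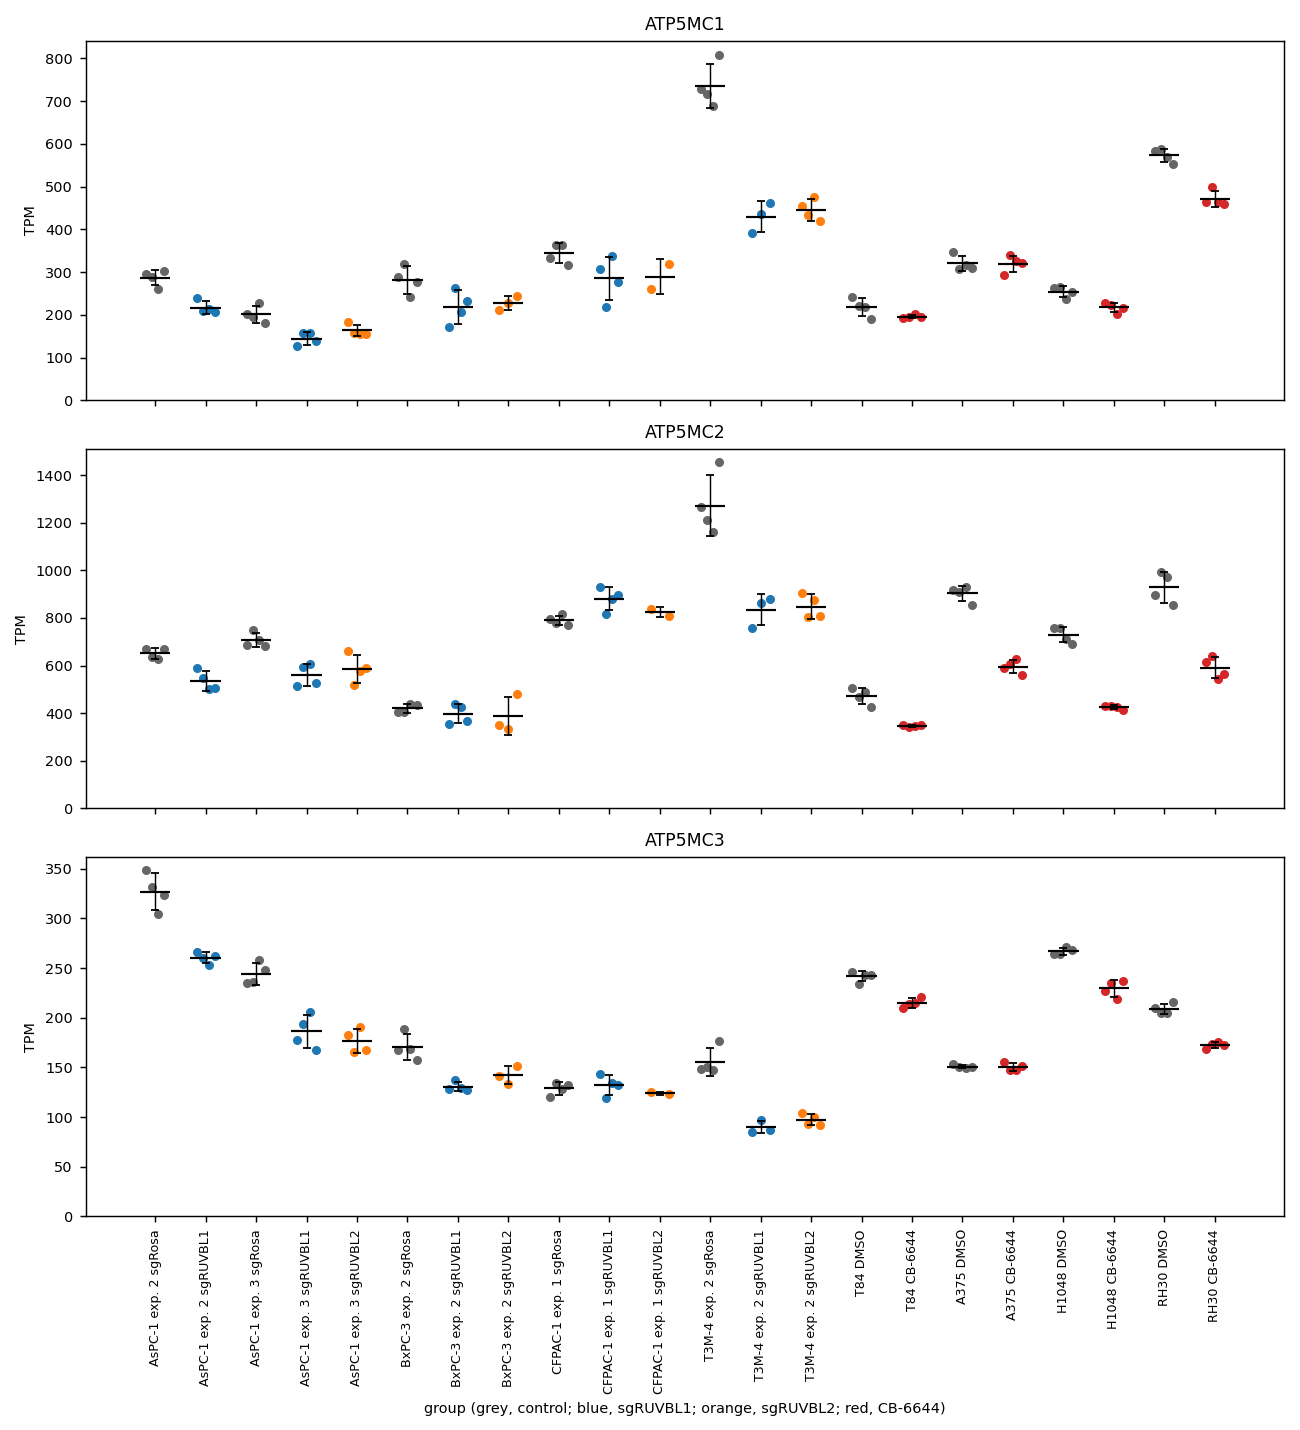
TPM of ATP5MC1, ATP5MC2 and ATP5MC3 in each library of the RUVBL1 and RUVBL2 knockouts and of CB-6644 in T84, A375, H1048 and RH30, with points for libraries, horizontal lines for group means and error bars for the SD. In T3M-4 all knockout libraries lie below all sgRosa libraries for the 3 genes, and in A375 CB-6644 lowers ATP5MC2 (563 to 627 TPM against 857 to 931 TPM) while the groups overlap for the other genes.

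Other members of ATP synthase and of complex I moved with them. NDUFS7, an iron-sulfur subunit at the ubiquinone site of complex I, fell after sgRUVBL1 in T3M-4 (-0.64 ± 0.08), AsPC-1 experiment 2 (-0.49 ± 0.07) and BxPC-3 (-0.43 ± 0.09). In AsPC-1 experiment 2 it was at 140, 128, 124 and 140 TPM in sgRosa and at 102, 81.7, 94.7 and 98.8 TPM in the knockout, so the groups were apart. ATP5PO, a stalk subunit, fell in T3M-4 (-0.64 ± 0.09), and ATP5F1A, the alpha subunit, fell in AsPC-1 experiment 2 (-0.46 ± 0.04). ATP5IF1, the protein that inhibits ATP synthase when it runs backwards, was at 272, 303, 274 and 265 TPM in AsPC-1 experiment 2 sgRosa and at 212, 212, 225 and 209 TPM after sgRUVBL1 (-0.37 ± 0.05, adjusted p = 1.8e-05). It was also lower in AsPC-1 experiment 3 (-0.45 after sgRUVBL1 and -0.48 after sgRUVBL2), in BxPC-3 (-0.33 and -0.21) and in T3M-4 sgRUVBL1 (-0.33). Without T3M-4 sgRosa replicate 4 the T3M-4 values were -0.63 for NDUFS7, -0.54 for ATP5PO and -0.33 for ATP5IF1, all called.

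Assembly factors did not follow a common direction. NDUFAF4 fell in T3M-4, from 12, 11.7, 11.2 and 13.6 TPM in sgRosa to 6.19, 6.91 and 7.33 TPM after sgRUVBL1 (-0.75 ± 0.11, adjusted p = 2.7e-05). NDUFAF1, an early chaperone of the membrane arm, rose in the same libraries (0.55 ± 0.10, adjusted p = 0.00012) and in AsPC-1 after sgRUVBL1 in experiment 2 (0.49 ± 0.08) and experiment 3 (0.75 ± 0.14). NDUFAF1 was higher in 15 of the 39 comparisons against control, more than any other member. ATP5MGL, a single-exon gene with a mean of only 3.58 TPM over all libraries, rose from 2.45 to 5.6 TPM in T3M-4 sgRUVBL1 (0.94 ± 0.25). Without T3M-4 sgRosa replicate 4, NDUFAF4 stood at -0.69, NDUFAF1 at 0.58 and ATP5MGL at 0.84 after sgRUVBL1, all called. In AsPC-1 sgRUVBL2, NDUFB1 fell (-0.74 ± 0.21), with 140, 60.8, 169 and 164 TPM against 210, 197, 212 and 214 TPM in sgRosa, the lowest being replicate 2, without which the value was -0.40 (adjusted p = 0.005).

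The 2 AsPC-1 experiments with sgRUVBL1 had their own controls, so their members can be set side by side. Of 82 members tested in both, 61 changed in the same direction, 22 were called in the same direction in both and 1 in opposite directions. The share of all genes called in both is not given here, so these counts cannot be set against it. Of all genes, 30% rose and 25.8% fell in experiment 2, and 36.6% and 15.2% in experiment 3. The fold changes correlated at r = 0.75 across members, beside 0.73 across all genes. Genes are not independent replicates, and both experiments used the same line and target.

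**Figure D3:**
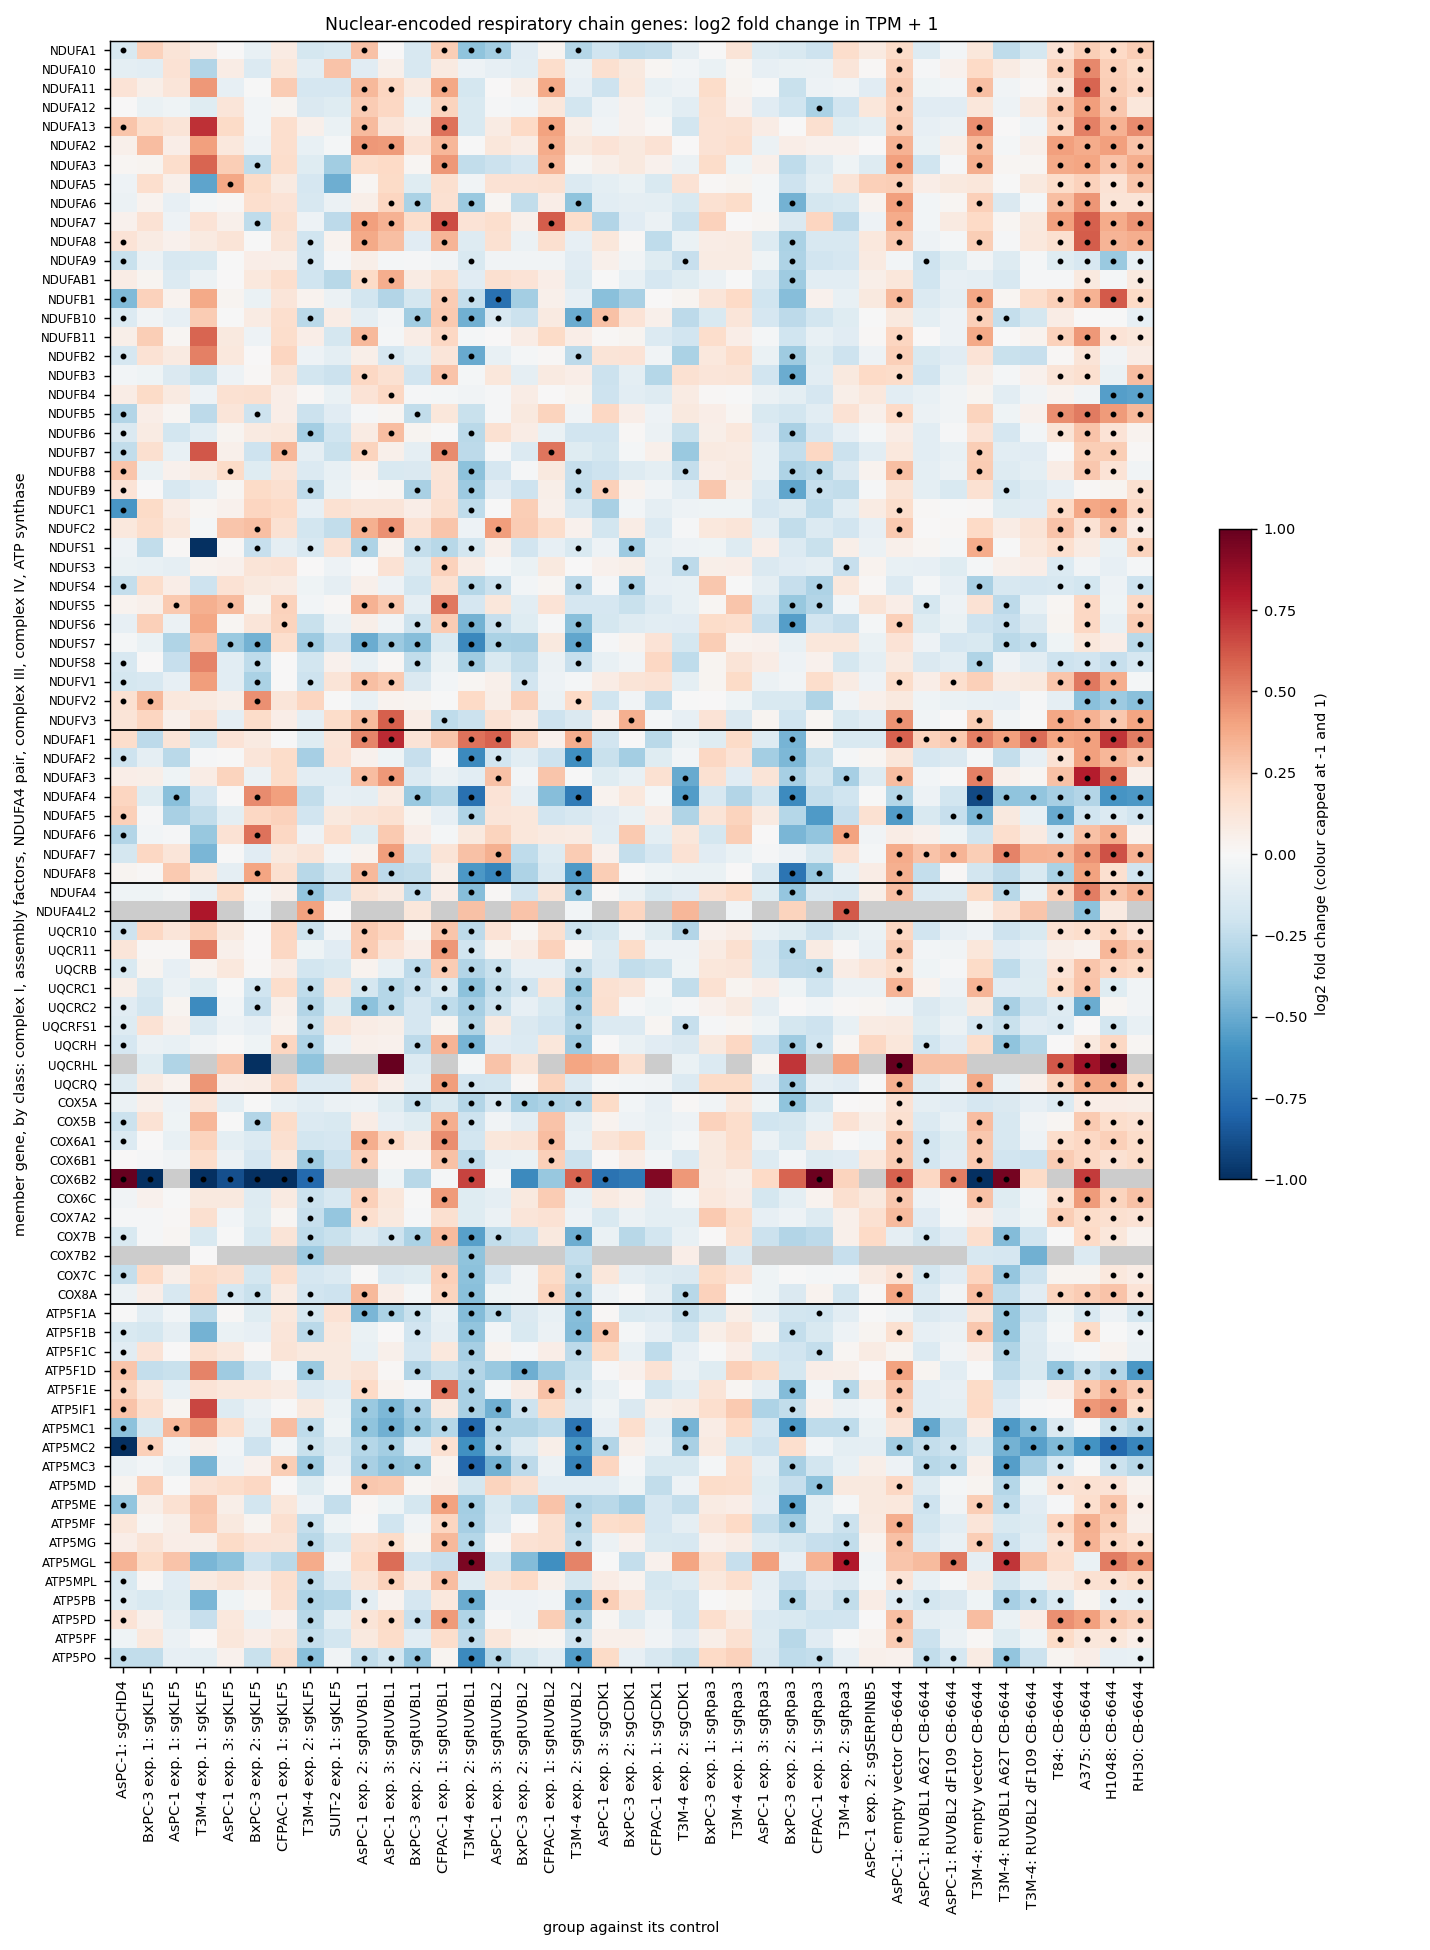
Log2 fold change, on log2(TPM + 1), of 85 of the 86 members (rows, grouped by class) in the 39 comparisons against control (columns), with colours capped at -1 and 1, a dot where the adjusted p was under 0.05 and grey where a gene was below the level for testing. The T3M-4 RUVBL1 and RUVBL2 knockout columns hold nearly all of their dots on blue (lower), and the CFPAC-1 sgRUVBL1 column holds 35 on red (higher) and 5 on blue.

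CB-6644 for 24 h was tested without knockout in 4 lines of other origin. Respiratory chain mRNAs were higher about as often as all genes in RH30 and T84, and more often in A375 and H1048. The members higher were 59 of 86 in A375 (68.6%, beside 51.5% of all genes) and 52 of 84 in H1048 (61.9% beside 53.9%). They were 45 of 82 in RH30 (54.9% beside 50.4%) and 41 of 83 in T84 (49.4% beside 47.2%). The members lower numbered 12 in A375 (14.0%, beside 29.7% of all genes) and 14 in H1048 (16.7% beside 24%). They numbered 19 in RH30 (23.2% beside 27.3%) and 17 in T84 (20.5% beside 24.2%). The medians of members and all genes were 0.20 and 0.16 in A375, 0.15 and 0.18 in H1048, 0.11 and 0.13 in RH30 and 0.13 and 0.13 in T84. Scaling left 37 higher and 26 lower in A375, 25 and 32 in H1048, 21 and 33 in RH30 and 15 and 27 in T84. Shares of all genes after scaling are not given by line, so these counts cannot be set against the shares above. The members' median relative to all genes was 0.048 before and 0.035 after scaling in A375 and -0.023 and -0.036 in H1048. It was -0.026 and -0.038 in RH30 and -0.0059 and -0.016 in T84. By class, 27 of 37 complex I genes were higher in A375, beside 68.6% of all members. No gene of complex IV, a class of 11 members, was lower in A375, H1048 or RH30. Ribosomal protein mRNAs went the other way, with 44 lower of 82 in A375, 63 of 82 in H1048, 46 of 83 in RH30 and 62 of 81 in T84.

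Of the 82 members tested in all 4 lines, 31 (37.8%) rose in each of them, beside 28.5% of the 10356 genes tested in all 4, NDUFA4, COX6A1 and NDUFAF1 among them. On scaling 7 members (8.54%) rose in each, beside 16.8% of all genes, so the comparison with all genes turned with the scaling. Another 7 members (8.54%) fell in each line, beside 11% of all genes, or 17 (20.7%) beside 19.4% on scaling, with ATP5F1D, ATP5MC2, NDUFAF4 and NDUFAF5 among the 7. ATP5F1D, the delta subunit of the ATP synthase rotor, fell most in RH30 (-0.57 ± 0.04).

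ATP5MC2 was at 757, 757, 712 and 692 TPM in H1048 DMSO and at 431, 431, 428 and 414 TPM in CB-6644 (-0.77 ± 0.03, adjusted p = 1.5e-09). In RH30 it fell from 897, 992, 974 and 855 TPM to 617, 640, 544 and 566 TPM (-0.65 ± 0.05, adjusted p = 2.7e-07). In A375 it fell from 916, 911, 931 and 857 TPM to 588, 606, 627 and 563 TPM (-0.60 ± 0.04, adjusted p = 3.1e-08). T84 showed the smallest decrease of the 4 (-0.44 ± 0.05), and no line had overlapping groups. The paralogs moved less: ATP5MC1 had log2 fold changes of -0.28 in RH30, -0.23 in H1048 and -0.15 in T84, and -0.00 in A375, where it was not called. ATP5MC3 stood at -0.27, -0.22, -0.17 and -0.00 in the same order, and was likewise not called in A375.

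Several members had the opposite sign. NDUFAF1 rose in all 4 lines, from 29.6, 29.5, 28.6 and 30.7 TPM to 51.8, 48.8, 45 and 51.1 TPM in H1048 (0.71 ± 0.05, adjusted p = 4.8e-08), and by 0.52, 0.41 and 0.40 on the log2 scale in RH30, A375 and T84. NDUFAF3, which binds NDUFAF4 during assembly, rose in A375 from a mean of 97.7 to 168.9 TPM (0.78 ± 0.03) and in H1048 (0.58 ± 0.07), while NDUFAF4 fell in H1048 (-0.59 ± 0.06), RH30 (-0.57 ± 0.07), T84 (-0.33 ± 0.05) and A375 (-0.29 ± 0.04). ATP5IF1 rose in H1048 (0.47 ± 0.03) and A375 (0.44 ± 0.05), the reverse of its direction in the RUVBL1 knockouts of pancreatic lines. NDUFV2, the subunit with the outlying iron-sulfur cluster, fell in A375 (-0.42 ± 0.03), RH30 (-0.41 ± 0.04) and H1048 (-0.36 ± 0.03). UQCRHL rose from 0.961, 1.89, 0 and 2.41 TPM to 4.59, 6.04, 3.82 and 6.01 TPM in H1048 (1.53 ± 0.30), but it is a near-identical single-exon copy of UQCRH, which is itself above 900 TPM there, so its value is uncertain.

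The response to CB-6644 differed between T84, A375, H1048 and RH30 for 61 of 85 members by the limma interaction test, where 86.2% of all genes did. COX6A1 (adjusted p = 0.52) and COX6B1 (adjusted p = 0.35), subunits of complex IV, were among those not called different. COX6A1 rose by 0.21 in A375, 0.24 in H1048, 0.18 in RH30 and 0.17 in T84. COX6B1 rose by 0.21, 0.15, 0.18 and 0.25 in the same order, but on scaling none of these calls held and its H1048 value turned to -0.03. COX8A rose by 0.25 in A375, 0.28 in H1048, 0.14 in RH30 and 0.22 in T84; on scaling the RH30 value turned to -0.00 and the T84 call was lost.

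AsPC-1 and T3M-4 cells with the resistance variants asked which changes need the compound to act on RUVBL1/2. In AsPC-1 with the empty vector, CB-6644 raised 52 of 84 members and lowered 5, where 47.2% of all genes rose and 17.2% fell. The members' log2 fold changes ran from -0.56 to 1.82 there, the highest in a member not named for this comparison. Scaling left 6 higher and 14 lower. With RUVBL1 A62T, 2 rose and 14 fell (10.8% and 1.98% of all genes), and with RUVBL2 dF109, 5 rose and 5 fell (29.3% and 4.1%). In T3M-4, 25 of 85 rose and 7 fell with the empty vector (19.1% and 15.2%), 4 rose and 23 fell with A62T (45.4% and 4.6%), and 1 rose and 5 fell with dF109 (34.3% and 3.34%). On scaling, T3M-4 had 3 higher and 6 lower with the empty vector, none higher and 61 lower with A62T, and none higher and 28 lower with dF109.

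The variant counts rested on which DMSO libraries were used. Against the DMSO library of its own vector, assumed to vary like the other groups, A62T had no member called in either line. In AsPC-1 A62T, scaling gave 24 lower, a fit of 2 groups none, and leaving out 1 library 0 (without CB-6644 replicate 1) to 30 lower (without the A62T DMSO library). In T3M-4 A62T, a fit of 2 groups gave 10 lower, and leaving out 1 library 10 (without CB-6644 replicate 3) to 35 lower (without the A62T DMSO library). With dF109, the own-vector counts were 4 higher and 9 lower in AsPC-1 and 3 and 8 in T3M-4, scaling gave 36 lower in AsPC-1, and without the A62T DMSO library 15 and 20 were lower. Empty-vector cells had 35 higher and 8 lower in AsPC-1 and 12 and 8 in T3M-4 against their own DMSO library. In T3M-4 empty vector a fit of 2 groups gave 5 higher and 2 lower, and leaving out 1 library 15 (without the dF109 DMSO library or CB-6644 replicate 3) to 40 higher (without the empty-vector DMSO library).

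Within CB-6644, the empty-vector libraries were compared with each variant directly. In AsPC-1, 65 of 84 members were higher and 3 lower in empty vector than in A62T (32.3% and 18.9% of all genes), and 59 were higher and 3 lower than in dF109 (26.3% and 20.9%). In T3M-4 the counts were 50 and 6 of 85 against A62T (9.21% and 41.4%) and 35 and 3 against dF109 (4.86% and 29.8%). Scaling gave 38 higher and 3 lower against A62T and 38 and 2 against dF109 in AsPC-1, and 71 and 2 and 52 and 1 in T3M-4, where leaving out 1 library gave 15 (without dF109 CB-6644 replicate 3) to 38 higher against dF109. The members' median was 0.30 in T3M-4 empty vector against A62T, beside -0.27 for all genes, and 0.29 in AsPC-1, beside 0.09. Cytosolic ribosomal protein genes moved with the members in T3M-4, with 76 higher and 2 lower in that comparison. Whether the vector lines differed without the compound, where each had 1 DMSO library, was not tested here. In T3M-4 DMSO the members took 3.22% of TPM with empty vector, 2.66% with A62T and 2.94% with dF109. The means in CB-6644 were 3.28%, 2.52% and 2.71%. In AsPC-1 the values were 2.88%, 2.60% and 2.83% in DMSO and 3.11%, 2.52% and 2.62% in CB-6644. The vectors thus had the same order with and without the compound in both lines. When each vector was set against its own DMSO library, the members' median relative to all genes was -0.13 rather than 0.10 for T3M-4 empty vector and -0.20 rather than -0.47 for T3M-4 A62T.

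NDUFAF4 in T3M-4 was at 9.12, 9.81 and 9.85 TPM in the DMSO libraries and at 4.33, 5.1 and 4.57 TPM in empty-vector cells given CB-6644 (-0.90 ± 0.10, adjusted p = 6.2e-05), while its log2 fold change was -0.41 ± 0.10 with A62T and -0.40 ± 0.10 with dF109. Empty vector was lower than either variant (-0.50 ± 0.10 and -0.51 ± 0.10), although scaling ended both calls. NDUFAF5 fell in AsPC-1 empty-vector cells (-0.56 ± 0.08), where CB-6644 gave 10.6, 12.6 and 12.4 TPM, below all variant libraries at 14.7 to 16.8 TPM. NDUFAF1 rose in AsPC-1 from 17.6, 18.4 and 18.6 TPM to 29.7, 27.3 and 26.8 TPM with the empty vector (0.59 ± 0.06), with 0.23 ± 0.06 for A62T and 0.26 ± 0.06 for dF109, and empty vector was higher than either (0.36 ± 0.06 and 0.32 ± 0.06). In T3M-4 its rise was 0.51, 0.41 and 0.56 with empty vector, A62T and dF109, and empty vector did not differ from either variant by the test. The calls of NDUFAF1 with A62T and dF109 were lost on scaling in both lines. ATP5MC2 in T3M-4 empty-vector cells stood at 965, 1104 and 1126 TPM against 1452 TPM in the DMSO library of that vector and 958 and 1131 TPM in the others, and was not called.

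**Figure D4:**
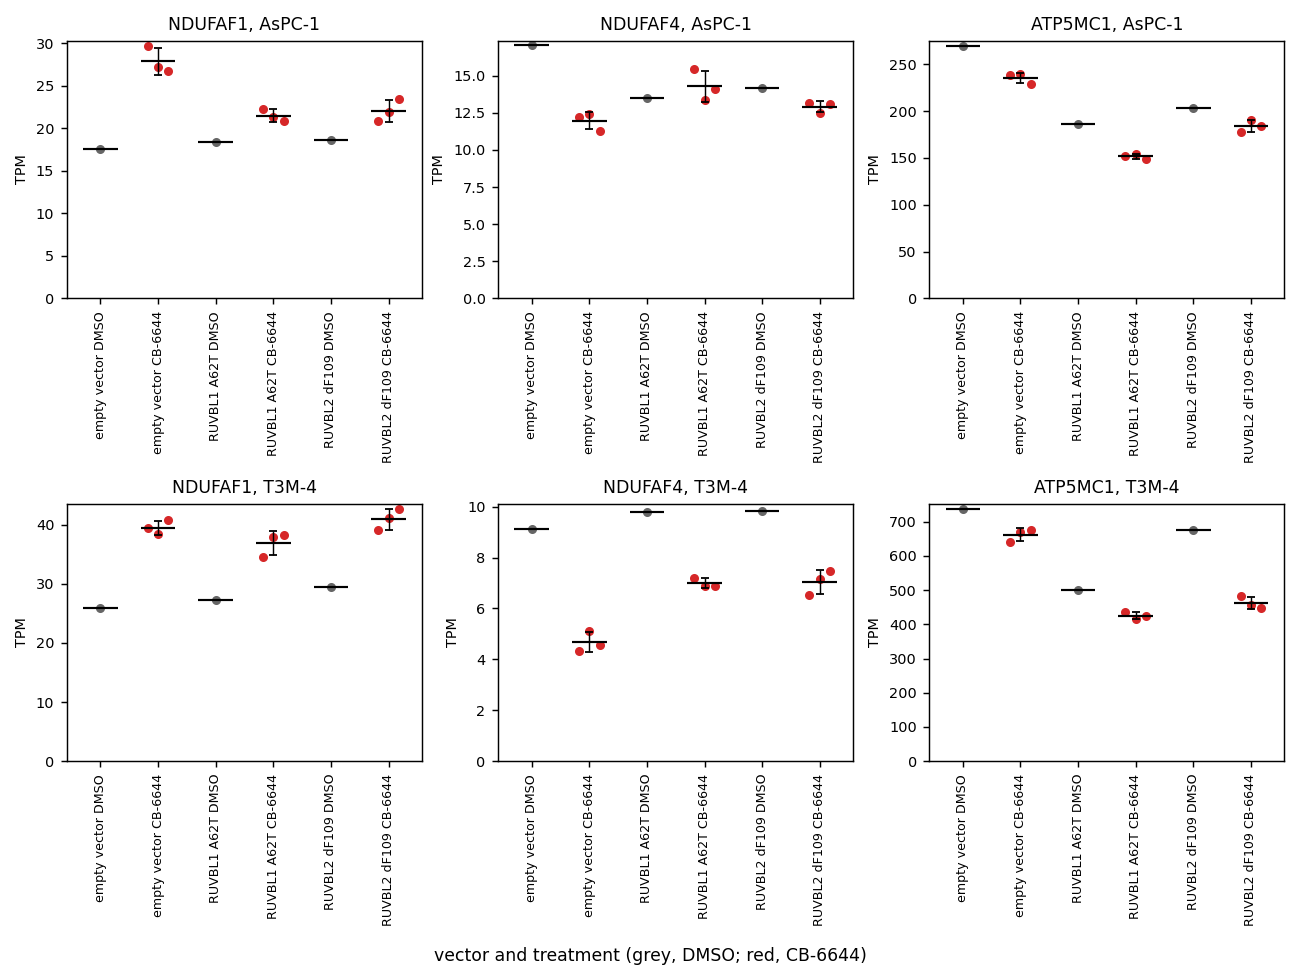
TPM of NDUFAF1, NDUFAF4 and ATP5MC1 in T3M-4 and AsPC-1 with either resistance variant (RUVBL1 A62T, RUVBL2 dF109) or the empty vector, in DMSO (grey, 1 library per vector) and CB-6644 (red, 3 libraries per vector), with lines for means and error bars for the SD. NDUFAF4 in T3M-4 with CB-6644 is lowest with the empty vector (4.33 to 5.1 TPM), and NDUFAF1 in AsPC-1 with CB-6644 is highest with it (26.8 to 29.7 TPM).

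Knockout of KLF5 moved few respiratory chain genes in most lines. Of the members tested, 2 rose and 1 fell in AsPC-1 experiment 1 (17.1% and 8.81% of all genes; the same counts without replicate 6), 3 and 3 in AsPC-1 experiment 3 (15.4% and 12.3%), 2 and 1 in BxPC-3 experiment 1 (8.09% and 8.1%), 5 and 13 in BxPC-3 experiment 2 (21% and 13.6%; 13 higher without sgRosa replicate 1) and 5 and 1 in CFPAC-1 (3.26% and 13%). The CFPAC-1 count of 5 was 0 or 1 without sgRosa replicate 1 or 3 or without any sgKLF5 library. In T3M-4, none rose and 1 fell in experiment 1 (3.26% and 2.46%), or 8 rose and 6 fell without sgKLF5 replicate 2. In T3M-4 experiment 2, 1 rose and 34 of 86 fell (23.4% and 11.2%), and 2 rose and 26 fell without the control library that stood apart. SUIT-2 had no call (2.94% and 1% of all genes), and no member had an unadjusted p under 0.05 by limma; without sgRosa replicate 1, 1 member was higher. Scaling changed the CFPAC-1 split to 22 higher and 1 lower and that of T3M-4 experiment 2 to none higher and 48 lower.

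COX6B2, the isoform of complex IV subunit 6B best known from testis, was the exception. The gene lies at chr19:55349306-55354719 and overlaps an unnamed gene on the same strand. In BxPC-3 experiment 2 it was at 15.3, 22.5, 24.9 and 27 TPM in sgRosa and at 4.76, 5.26, 6.6 and 6.22 TPM after sgKLF5 (-1.79 ± 0.21, adjusted p = 3.3e-06). In BxPC-3 experiment 1, with other controls, it was at 7.34 and 8.37 TPM in sgRosa and at 3.27, 1.32, 2.81 and 1.85 TPM in sgKLF5 (-1.46 ± 0.25, adjusted p = 0.0026). All knockout libraries of BxPC-3 were below all controls of their experiment. In experiment 1 the summed level of the fibroblast, leukocyte and endothelium markers named above also differed. It was 69.9 to 113 TPM in the BxPC-3 sgKLF5 libraries against 20.9 and 22.9 TPM in sgRosa. In experiment 2 it was 5.39 to 7.88 TPM after sgKLF5 and 6.06 to 9.62 TPM in sgRosa. Levels of the single markers are not given for BxPC-3, and the part of these markers in the BxPC-3 results was not tested.

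T3M-4 gave the same direction for COX6B2, with a less even separation. In experiment 1 it was at 21.4 and 18.4 TPM in sgRosa and at 6.53, 3.42, 7.14 and 6.57 TPM in sgKLF5 (-1.63 ± 0.34, adjusted p = 0.033), and without replicate 2 the value was -1.43. That call was lost on leaving out any library but sgKLF5 replicate 2, in 5 of 6 fits. In experiment 2 the sgRosa libraries had 33.2, 31.1, 38.4 and 14.3 TPM and the sgKLF5 libraries 13.5, 16.5, 16.1 and 16.6 TPM (-0.78 ± 0.21, adjusted p = 0.0074). The groups overlapped there only through sgRosa replicate 4, without which the fold change was -1.08.

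AsPC-1 and CFPAC-1 expressed COX6B2 at a lower level. In AsPC-1 experiment 3 it fell from 2.27, 2.39, 2.46 and 2.75 TPM to 0.249, 1.13, 1.59 and 0.811 TPM (-0.88 ± 0.20, adjusted p = 0.002). In CFPAC-1 it was at 3.5, 1.01, 5.5 and 2.36 TPM in sgRosa and at 0.755, 0.532 and 0.669 TPM in sgKLF5 (-1.18 ± 0.27, adjusted p = 0.011). No knockout library reached a control in either line, although these levels are near the limit for a gene to be tested, and COX6B2 did not pass it in AsPC-1 experiment 1 or SUIT-2. On the log2(TPM + 1) scale the change of such low genes is understated.

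COX6B1, the ubiquitous isoform, behaved differently. It stood at 1030, 1100, 976 and 1088 TPM in BxPC-3 experiment 2 sgRosa and at 963, 950, 895 and 924 TPM after sgKLF5, where it was not called, and among the sgKLF5 comparisons it was called only in T3M-4 experiment 2 (-0.35 ± 0.09, adjusted p = 0.0047; -0.26 without sgRosa replicate 4). COX6B2 was not called lower in any RUVBL1 or RUVBL2 knockout. In T3M-4 it was higher after sgRUVBL1, at 48.2, 43.9 and 41.8 TPM (0.68 ± 0.23, adjusted p = 0.016), and after sgRUVBL2 (0.58 ± 0.21), both calls being lost on scaling; without sgRosa replicate 4 the values were 0.38 and 0.28, the second not called. With CB-6644, T3M-4 empty-vector cells had 6.63, 4.31 and 2.41 TPM of COX6B2 against 6.92 TPM in the DMSO library of that vector, while A62T cells had 23.5, 22.5 and 23.3 TPM against 20.3 TPM and dF109 cells 14.7, 12.3 and 12.6 TPM against 10.3 TPM. The 3 DMSO libraries thus had the same order of COX6B2 as the 3 CB-6644 groups. The call of empty vector against the pooled DMSO libraries (-1.26 ± 0.33) was lost against the 1 own-vector library, which was assumed to vary like the other groups (-0.62, adjusted p = 0.19).

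**Figure D5:**
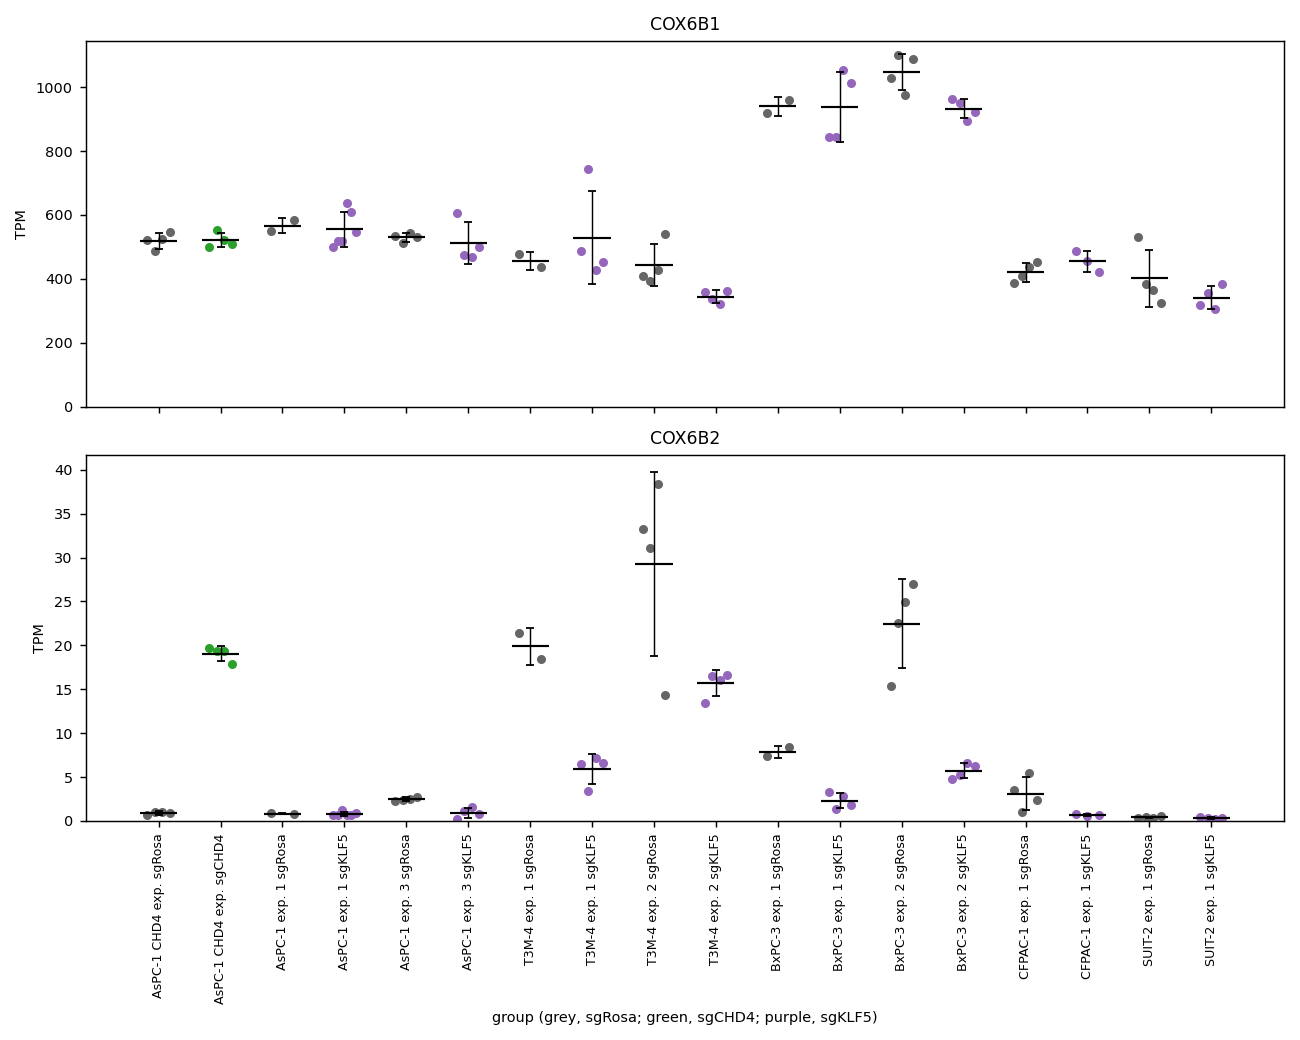
TPM of COX6B1 and COX6B2 in each library of the sgCHD4 (green) and sgKLF5 (purple) comparisons with their sgRosa controls (grey), with lines for group means and error bars for the SD. COX6B2 is lower after sgKLF5 in BxPC-3 experiment 2 (4.76 to 6.6 TPM against 15.3 to 27 TPM) and higher after sgCHD4 in AsPC-1 (17.9 to 19.7 TPM against 0.664 to 1.07 TPM).

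Other sgKLF5 calls were small. NDUFV2 rose in both BxPC-3 experiments, from 217 and 213 TPM to 257, 272, 282 and 266 TPM in experiment 1 (0.32 ± 0.07, a call lost on scaling) and from 263, 214, 213 and 220 TPM to 316, 320, 296 and 313 TPM in experiment 2 (0.46 ± 0.07), with no overlap. NDUFS7 fell in BxPC-3 experiment 2 (-0.47 ± 0.09), AsPC-1 experiment 3 (-0.37 ± 0.09) and T3M-4 experiment 2 (-0.36 ± 0.07, or -0.35 without sgRosa replicate 4). NDUFS5 rose in AsPC-1 experiment 1 (0.26 with and without replicate 6) and experiment 3 (0.32), the only member called in both. In T3M-4 experiment 2, ATP5PO (-0.42), NDUFA4 (-0.40) and COX7B2 (-0.37), an isoform found in few of these lines, fell, with -0.32, -0.33 and -0.30 without sgRosa replicate 4. Across repeat experiments the members' sgKLF5 fold changes correlated at r = 0.63 in BxPC-3 (0.50 for all genes), 0.38 in T3M-4 (0.53) and 0.29 in AsPC-1 (0.78), over 84, 85 and 83 members. Without the 2 T3M-4 libraries that stood apart the T3M-4 value was 0.645 (0.626 for all genes), and without AsPC-1 experiment 1 sgKLF5 replicate 6 the AsPC-1 value was 0.221 (0.778).

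In the CHD4 knockout of AsPC-1, COX6B2 had the largest log2 fold change of any member over the 39 comparisons against control. It rose from 0.664, 1.01, 1.07 and 0.853 TPM in sgRosa to 19.7, 19.4, 19.3 and 17.9 TPM in sgCHD4 (3.41 ± 0.10, adjusted p = 4.2e-10), while COX6B1 stayed within its control range in mean, at 501, 554, 522 and 510 TPM against 521, 487, 523 and 548 TPM, and was not called. ATP5MC2 fell from 766, 741, 762 and 770 TPM to 349, 381, 354 and 361 TPM (-1.07 ± 0.04, adjusted p = 1.4e-09). Both separations were many times the spread within groups. ATP5MC1 fell too, from 239, 246, 270 and 256 TPM to 195, 188, 190 and 185 TPM (-0.41 ± 0.04), whereas ATP5MC3 did not pass the test (-0.06). In all, 11 of 83 members rose and 32 fell (23.3% and 26.7% of all genes), with medians of -0.05 for members and -0.03 for all genes, and scaling left 9 higher and 12 lower; without sgCHD4 replicate 4 or sgRosa replicate 2 there were 7 higher. NDUFC1 (-0.59 ± 0.05) and NDUFB1 (-0.44 ± 0.06), accessory subunits of complex I, followed ATP5MC2 among those that fell, and ATP5IF1 (0.29), NDUFB8 and ATP5F1D (both 0.28) followed COX6B2 among those that rose.

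The remaining knockouts were of SERPINB5, CDK1 and RPA3. sgSERPINB5 in AsPC-1 gave no called member (0.0172% of all genes in each direction), with 7 at an unadjusted p under 0.05 by limma. sgCDK1 lowered 11 of 86 members and raised none in T3M-4 (3.85% and 13% of all genes), NDUFAF4 (-0.55), NDUFAF3 (-0.50) and ATP5MC1 (-0.47) among them, with -0.50, -0.46 and -0.42 without sgRosa replicate 4, when 8 were lower. A fit of these 2 groups called none, and leaving out 1 library gave 2 (without sgCDK1 replicate 2) to 17 lower (without sgRosa replicate 3). It raised 4 and lowered 2 in AsPC-1 (10.3% and 6.44%), raised 1 and lowered 2 in BxPC-3 (3.71% and 2.12%) and called none in CFPAC-1 (0% and 0%), where 14 members had an unadjusted p under 0.05. sgRpa3 lowered 29 of 85 members and raised none in BxPC-3 experiment 2 (11.6% and 9.12%), with NDUFAF8 (-0.73) and NDUFAF4 (-0.63) lowest. Scaling left 16 lower there, and leaving out sgRpa3 replicate 1 or 2 left 8 or 12. It called none in BxPC-3 experiment 1 (0.0161% and 0.29%), where 2 had an unadjusted p under 0.05. In T3M-4 it called none in experiment 1 (0% and 0%, with 0 at an unadjusted p under 0.05) and lowered 7 and raised 3 in experiment 2 (6.2% and 18.4%), or 3 and 3 without sgRosa replicate 4, 1 lower without sgRpa3 replicate 2 and none in a fit of 2 groups. It lowered 12 and raised 1 in CFPAC-1 (3.39% and 8.17%), but none was lower without either sgRpa3 library, 3 without sgRosa replicate 4, 7 without sgRosa replicate 1 and 1 in a fit of 2 groups. It called none in AsPC-1 experiment 3 (0.0164% and 0.638%), where 7 had an unadjusted p under 0.05.

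Genes of the same pathways that the symbol rule does not reach were followed as fixed lists. Beside the counts for CB-6644 stand the shares of all genes given above, 47.2% to 53.9% higher and 24% to 29.7% lower; with 8 to 14 genes a list, counts near these shares say nothing particular to it. Among 8 tested of complex II, cytochrome c and the remaining nuclear subunits of complexes III and IV, 5 rose and 3 fell in A375 with CB-6644, 4 and 2 in H1048, 5 and 3 in RH30 and 6 and 1 in T84. SDHA, the flavoprotein of complex II, rose in all 4 (0.55, 0.56, 0.40 and 0.43), and CYCS, the electron carrier cytochrome c, rose by 0.71 in A375. CYC1, the cytochrome c1 subunit of complex III, fell after sgRUVBL1 in T3M-4 (-0.69) and CFPAC-1 (-0.34). In CFPAC-1, 35 of 83 members rose, 5 fell and 43 were not called. In T3M-4 sgRUVBL1, where 45.9% of all genes rose and 14.6% fell, 2 of this list rose and 5 fell, or 4 fell without sgRosa replicate 4, when CYC1 stood at -0.66. Of the citric acid cycle genes tested, 7 of 8 rose in A375, 6 in H1048, 5 in RH30 and 4 in T84, while CS, citrate synthase, fell in each (-0.60, -0.85, -0.48 and -0.36). Of the regulators of mitochondrial biogenesis, 8 of 13 fell and 3 rose in A375, 10 of 14 fell and 3 rose in H1048, 7 of 13 fell and 1 rose in RH30 and 8 of 14 fell and 2 rose in T84. MYC fell in these lines (-0.75 in H1048 to -1.06 in T84), whereas TFAM, the packaging factor of mitochondrial DNA, rose (0.24, 0.40, 0.38 and 0.43). In the RUVBL knockouts the proliferation genes fell, 9 of 10 in T3M-4 sgRUVBL1 (10 without sgRosa replicate 4), where 14.6% of all genes fell, and 8 of 10 in CFPAC-1 sgRUVBL1, where 37.3% fell, and in which the members moved in opposite directions.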

How the data were processed

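Poly-A RNA from cell lines was sequenced as single-end reads. The authors deposited TPM per gene name, made with kallisto and tximport against hg38 in the study's methods, in 8 tables normalized separately. Tests were made within a line and experiment, except the interaction test. That test took the libraries of T84, A375, H1048 and RH30 together. The strand setting is not given in the sources used here. TPM keep no read depth, so genes at 1 TPM or more are given per library instead, and no counting interval can be had.

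From these tables log2(TPM + 1) was tested with limma 3.58.1 (R 4.3.3, trended empirical Bayes) over genes that averaged 1 TPM or more in the fit, all groups of a line and experiment together, and p-values were adjusted by Benjamini-Hochberg over all genes tested, with 0.05 as threshold. Fold changes are on that scale, which understates low genes; errors are standard errors. The fit was tested on simulated data. Alternatives were another pseudocount (0.1), no filter or a mean of 5 TPM, median-of-ratios scaling, fits of 2 groups, a replicate block, own-vector DMSO and leaving out each library. Scaled shares of all genes are given only for calls shared by T84, A375, H1048 and RH30. Other scaled counts of members stand without them. Named members were the 3 largest rises and falls per comparison among calls without overlap, the 10 members most often called in each direction, the 3 most abundant of each class and fixed paralog sets. Among the members, 1 is counted throughout but not reported singly here. The members and gene lists were chosen with earlier results of these data known. Same-numbered libraries deviated together (every correlation over 0.1) only between sgRUVBL1 and sgRUVBL2 in BxPC-3, at r of 0.22 to 0.46, where the block also called none; no label says that a number marks a shared culture.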

Additional observations from a re-analysis of the deposited data

Results flagged for a closer look

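The members' summed share and some single members were checked in groups of libraries for a value far from the rest of its group. These checks share libraries, so they are not independent of each other. Of 240 checks, 17 found such a value, where chance alone gives about 1 in 20. T3M-4 experiment 1 sgKLF5 replicate 2 gave 2 of them, with ATP5MC3 at 67.9 TPM (others 141 to 153) and COX6B2 at 3.42 TPM (others 6.53 to 7.14). T3M-4 experiment 2 sgRosa replicate 4 gave 2, the members' summed share at 3.38% (others 2.85% to 2.93%) and ATP5MC3 at 176 TPM (others 146.9 to 150.5), and SUIT-2 sgRosa replicate 1 gave 2, ATP5MC2 at 1109.8 TPM (others 760.5 to 812.5) and NDUFAF4 at 9.26 TPM (others 6.73 to 6.91).

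The other 11 were spread over the series. COX6B2 was low in T3M-4 experiment 2 sgKLF5 replicate 1 (13.5 TPM) and in A375 CB-6644 replicate 2 (1.098 TPM). ATP5MC1 was high in AsPC-1 experiment 3 sgRUVBL2 replicate 1 (184 TPM) and RH30 CB-6644 replicate 2 (499 TPM), and ATP5MC3 in BxPC-3 sgRUVBL1 replicate 3 (137 TPM). NDUFAF1 was low in RH30 CB-6644 replicate 1 (30.2 TPM), NDUFAF4 high in T84 CB-6644 replicate 4 (24.1 TPM) and ATP5IF1 high in T84 DMSO replicate 1 (256 TPM). The summed share was 2.82% in AsPC-1 experiment 3 sgRUVBL1 replicate 4, 2.53% in AsPC-1 experiment 3 sgRosa replicate 2 and 2.44% in RH30 DMSO replicate 3.

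The response to CB-6644 differed between T84, A375, H1048 and RH30 for 9 of 13 members examined singly (limma interaction test, adjusted over all genes). The adjusted p was 3.1e-07 for ATP5IF1, 5.4e-07 for ATP5MC3, 3.7e-06 for NDUFA4, 0.0011 for ATP5MC2, 0.0027 for NDUFAF4, 0.0055 for ATP5MC1, 0.0060 for NDUFAF1, 0.018 for NDUFA4L2 and 0.042 for COX8A. ATP5MC2 and NDUFAF4 fell and NDUFAF1 rose in all 4 lines, so for these 3 the lines differed in size and not in direction. NDUFA4 rose in all 4 lines, by 0.52 in A375, 0.35 in RH30, 0.28 in H1048 and 0.24 in T84. NDUFA4L2 fell in A375 (-0.41) and was not called in H1048 (0.09).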

How the results depend on the processing

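The members' median relative to all genes moved by less than the spread between libraries under scaling, the other pseudocount and, where these could be fitted, 2-group fits and the replicate block. It moved further with the own-vector DMSO library: -0.114 (from -0.209) for AsPC-1 A62T, -0.326 (from -0.201) for AsPC-1 dF109, -0.127 (from 0.0997) for T3M-4 empty vector and -0.201 (from -0.468) for T3M-4 A62T. With no filter on low values it was 0.0726 in A375 (from 0.0477), 0.0133 in H1048 (from -0.0233) and 0.0301 in RH30 (from -0.0264), and with a mean of at least 5 TPM 0.0930 in A375 and 0.0104 in H1048. Leaving out each library gave -0.0700 to 0.374 in T3M-4 experiment 1 sgRpa3, 0.140 to 0.282 in BxPC-3 experiment 1 sgRpa3, -0.107 to 0.0875 in BxPC-3 experiment 2 sgCDK1 and -0.0838 to -0.00302 in T84.

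Of 305 calls of named members, scaling ended 69 and turned 3: UQCRC1 in CFPAC-1 sgRUVBL1 (0.0638), COX6B1 in H1048 (-0.0313) and COX8A in RH30 (-0.00287). The cause was not tested. Leaving out a library ended 323 of 2141 calls, 2-group fits 70 of 238, own-vector DMSO 24 of 47 and no filter 31 of 305.

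The replicate block ended 44 of 258 and moved 33 of 82 counts of members by over 1.5 times, all where the numbers were not shown to pair the libraries. Members higher and lower went from 2 and 1 to 9 and 19 in BxPC-3 experiment 1 sgKLF5, from 0 and 29 to 3 and 59 in BxPC-3 experiment 2 sgRpa3, from 4 and 2 to 12 and 16 in AsPC-1 sgCDK1 and from 11 and 32 to 6 and 20 in sgCHD4. In CFPAC-1 they went from 35 and 5 to 22 and 1 after sgRUVBL1 and from 10 and 1 to 0 and 0 after sgRUVBL2, and the 5 members that separated sgRUVBL1 from sgRUVBL2 in AsPC-1 were all lost. Depth is unknown, so no detection limit can be set for low members such as COX6B2.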
